A study of Mesocricetus auratus with 6 samples.

Results

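The complement and coagulation genes described here encode the proteins of a pair of plasma protease cascades and the inhibitors that hold them in check. They were listed by symbol, 19 for complement and 19 for coagulation, and 34 of the 38 had a value in every library, 17 in each class, out of 31593 genes in all. They were chosen by name, and complement and coagulation are read apart. *Serping1*, which inhibits proteases of both cascades, was counted with coagulation. *C5*, *Cfp*, *F7* and *F10* were not analysed here.

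Complement is a chain of proteases that coats targets with fragments of C3 and can end in a pore, the membrane attack complex, and its classical, lectin and alternative pathways differ in how C3 is first cleaved. Coagulation proteases converge on thrombin, which makes fibrin, while antithrombin, protein C and plasmin restrain or dissolve the clot. Hepatocytes secrete most of the circulating proteins of both cascades, von Willebrand factor comes from endothelium and megakaryocytes, and glia, neurons and vessels of the brain make some components of their own.

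The data are RNA sequencing of poly(A) RNA from liver, cerebral cortex and the suprachiasmatic nucleus (SCN), the hypothalamic pacemaker, of wild-type and *duper* Syrian hamsters, all collected at circadian time (CT) 15. *duper* is a recessive frameshift mutation of *Cry1* that leaves no CRY1 protein, and both genotypes were of the LVG ecotype, the *duper* line having been derived by crossing *tau duper* hamsters to it. Each genotype was represented by 4 hamsters, all female for *duper* and of both sexes in equal number for wild type, so genotype and sex cannot be fully told apart, and their ages are not given in the sources used here. Each cortex or SCN library holds mixed RNA of the 4 hamsters, and for liver 4 separate libraries were merged in the deposited values, which leaves 1 value per genotype and tissue, 6 in all. The total estimated counts were 6788947 and 10391925 in wild-type and *duper* cortex, 29936218 and 7248840 in the SCN, and 69839214 and 85748562 in liver. Levels are given in TPM, the transcripts of a gene per transcript length as a share of the library on a common scale, always with wild type before *duper*. The most abundant gene took 12.6 and 13.4% of the liver counts and at most 0.765% of the counts of a brain library.

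Marker genes followed the tissue labels. By the edgeR tests described with each comparison, 13 of 13 hepatocyte markers were higher in liver, and between the brain regions 7 of 7 cortical projection neuron markers were lower in the SCN, while of 6 SCN markers tested 4 were higher and 1 lower. The mutated gene itself, *Cry1*, stood at 33.3 and 8.56 TPM in cortex, 22.9 and 8.14 TPM in the SCN and 16.8 and 5.44 TPM in liver, lower in *duper* in each tissue. None of the 7 Y-linked genes listed is in the files, so the sex of the libraries could not be checked from them.

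In liver the genes of both cascades were abundant. The 17 complement genes summed to 9349 and 13598 TPM, 0.935 and 1.36% of all TPM, and the 17 coagulation genes to 11141 and 13249 TPM, 1.11 and 1.32%. In the SCN the sums were 124 and 126 TPM for complement and 97.7 and 82.1 TPM for coagulation. In cortex they were 99.5 and 90.9 TPM and 57.1 and 65 TPM. Complement output in liver was concentrated in *C3*, which made up 43.1 and 47.3% of the sum, whereas the leading coagulation gene, *Serpinc1* in wild type and *Plg* in *duper*, held 20 and 19.3%. With *C3* set aside, the complement sum was 5315 and 7173 TPM. In bulk tissue, fewer cells that make a transcript and less of it per cell cannot be told apart.

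*C3*, the component on which the activation routes converge, had 4034 and 6426 TPM in liver, 22.8 and 27.9 TPM in the SCN and 16.1 and 16.7 TPM in cortex. The alternative pathway protease gene *Cfb* came next, at 1291 and 1759 TPM in liver, 11.9 and 9.12 TPM in the SCN and 1.54 and 2.32 TPM in cortex. *Cfd*, the protease that cleaves factor B and is known best from fat tissue, had far less in liver, at 27.7 and 14.8 TPM in liver, 18.9 and 17.4 TPM in the SCN and 12.2 and 4.72 TPM in cortex. In TPM its *duper* liver level was below both SCN levels, unlike that of *Cfb*. Among the starters of the classical pathway, *C1r* had 464 and 657 TPM in liver, 8.77 and 5.23 TPM in the SCN and 3.46 and 2.76 TPM in cortex. Its partner protease *C1s* had 356 and 562 TPM in liver, 19.8 and 21 TPM in the SCN and 31.5 and 35 TPM in cortex. *C2*, the protease of the classical and lectin C3 convertase, had 225 and 284 TPM in liver, 10.9 and 11 TPM in the SCN and 2.72 and 4.59 TPM in cortex. In all of these except *Cfd* the liver libraries lay far above every brain library. Of the 17 complement genes read here *C1s* had the highest level in both cortex libraries.

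For the lectin pathway, the sugar-binding recognition protein gene *Mbl2* had 304 and 368 TPM in liver, 0.597 and 0 TPM in the SCN and 0 and 0 TPM in cortex. Its proteases were less confined to liver. *Masp1*, whose protein activates MASP2, had 87.5 and 104 TPM in liver, 4.27 and 5.21 TPM in the SCN and 7.46 and 3.87 TPM in cortex. *Masp2*, which cleaves C4 and C2, had 250 and 289 TPM in liver, 8.28 and 9.71 TPM in the SCN and 9.7 and 6.72 TPM in cortex. Both proteases had counts in every brain library. Of the regulators, *Cfi*, the protease that inactivates C3b and C4b, had 682 and 1259 TPM in liver, 1.75 and 2.09 TPM in the SCN and 0.437 and 0.574 TPM in cortex. *C4bpa*, the main chain of C4b-binding protein, had 438 and 687 TPM in liver, 0.343 and 0.526 TPM in the SCN and 0.933 and 0.926 TPM in cortex. These regulators were high in both livers, with *duper* above wild type, and near the limit of counting in cortex, with 3 and 6 counts of *Cfi* and 6 and 9 of *C4bpa*. In the SCN *Cfi* had 60 and 17 counts.

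The genes of the membrane attack complex split by tissue. *C8a*, for the alpha chain of C8, had 302 and 339 TPM in liver, 0.113 and 0.239 TPM in the SCN and 0.188 and 0.125 TPM in cortex. *C8b*, for the beta chain, had 160 and 148 TPM in liver, 0.0937 and 0.272 TPM in the SCN and 0.468 and 0 TPM in cortex. *C9*, the polymerising pore subunit, had 528 and 458 TPM in liver, 0.176 and 0.593 TPM in the SCN and 0.702 and 0.116 TPM in cortex. Those 3 genes were all but confined to liver. *C8g*, which encodes the lipocalin-like gamma chain of C8, had 172 and 206 TPM in liver, 10.3 and 11.9 TPM in the SCN and 7.48 and 7.65 TPM in cortex, with counts in every brain library. *C7* was modest everywhere, at 27.7 and 28.9 TPM in liver, 3.04 and 2.06 TPM in the SCN and 4.11 and 2.33 TPM in cortex. *C6*, which follows C5b in assembly of the pore, had 0.762 and 8.9 TPM in liver, 2.22 and 1.3 TPM in the SCN and 0.482 and 2.55 TPM in cortex, so that its wild-type liver library lay below the wild-type SCN library and its *duper* liver library stood above all others.

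Among the coagulation genes of liver, prothrombin, *F2*, had 1526 and 1508 TPM in liver, 9.21 and 9.82 TPM in the SCN and 13.1 and 13 TPM in cortex. The cofactor gene *F5* had 277 and 282 TPM in liver, 1.87 and 0.932 TPM in the SCN and 2.01 and 2.52 TPM in cortex. *F8*, the cofactor made mainly by endothelial cells, had 15.2 and 9.04 TPM in liver, 0.195 and 0.0392 TPM in the SCN and 0.0926 and 0 TPM in cortex. Both cofactor genes were highest in liver, *F5* many times above *F8*. *F9*, mutated in hemophilia B, had 251 and 280 TPM in liver, 0.165 and 0.522 TPM in the SCN and 0.412 and 0 TPM in cortex. *F11*, whose protein activates factor IX, had 236 and 213 TPM in liver, 0.139 and 0.439 TPM in the SCN and 0.348 and 0.23 TPM in cortex. *F13b*, the carrier subunit of the fibrin-crosslinking factor XIII, had 134 and 110 TPM in liver, 0.272 and 0.306 TPM in the SCN and 0.0904 and 0.659 TPM in cortex. For the cofactor *F8* the liver level was the lowest of these by a wide margin, and all 6 genes were far lower in every brain library than in liver.

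The contact system has the kininogen, prekallikrein and factor XII genes. *Kng1*, the source of bradykinin, had 1616 and 2177 TPM in liver, 32.7 and 20.4 TPM in the SCN and 6.32 and 12.3 TPM in cortex. *Klkb1*, for prekallikrein, had 191 and 238 TPM in liver, 0.355 and 0 TPM in the SCN and 0.508 and 0.502 TPM in cortex. *F12*, whose protein starts contact activation, had 206 and 225 TPM in liver, 0.292 and 1.33 TPM in the SCN and 2.31 and 1.29 TPM in cortex. *Kng1* was thus the contact gene with a clear brain level, higher in both SCN libraries than in both cortex libraries. Of the anticoagulants, *Serpinc1*, antithrombin, had 2227 and 2514 TPM in liver, 1.49 and 0.554 TPM in the SCN and 1.09 and 1.44 TPM in cortex. Heparin cofactor, *Serpind1*, had 531 and 662 TPM in liver, 0.383 and 1.21 TPM in the SCN and 0.797 and 0.632 TPM in cortex. *Proc*, for protein C, had 682 and 574 TPM in liver, 0.412 and 1.55 TPM in the SCN and 0.916 and 0.302 TPM in cortex. Its cofactor protein S, *Pros1*, had 166 and 148 TPM in liver, 6.69 and 4.6 TPM in the SCN and 5.03 and 4.29 TPM in cortex. Antithrombin was among the most abundant liver genes of the list and very low in brain, whereas *Pros1* held several TPM in each brain library.

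In fibrinolysis, plasminogen, *Plg*, had 1873 and 2562 TPM in liver, 0.557 and 0.641 TPM in the SCN and 1.77 and 0.669 TPM in cortex. Its inhibitor antiplasmin, *Serpinf2*, had 374 and 589 TPM in liver, 2.1 and 2.4 TPM in the SCN and 2.53 and 1.33 TPM in cortex. *Serping1*, the C1 inhibitor that restrains C1r, C1s and the contact proteases, had 836 and 1157 TPM in liver, 36.3 and 33.2 TPM in the SCN and 16.1 and 21.9 TPM in cortex. Of the 17 coagulation genes read here it had the highest level in each of the 4 brain libraries. *Vwf*, the platelet-tethering protein of endothelium, had 1.3 and 1.35 TPM in liver, 4.55 and 4.15 TPM in the SCN and 3.72 and 4.01 TPM in cortex, lower in TPM in both livers than in all 4 brain libraries. A value of 0 among all of these was seen 7 times, for 5 genes, and 0 counts allow a level of up to 0.0913 to 1.8 TPM depending on the gene and library. The lower detection in brain thus limits statements about *Mbl2*, *C8b*, *F8*, *F9* and *Klkb1* there.

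**Figure D1:**
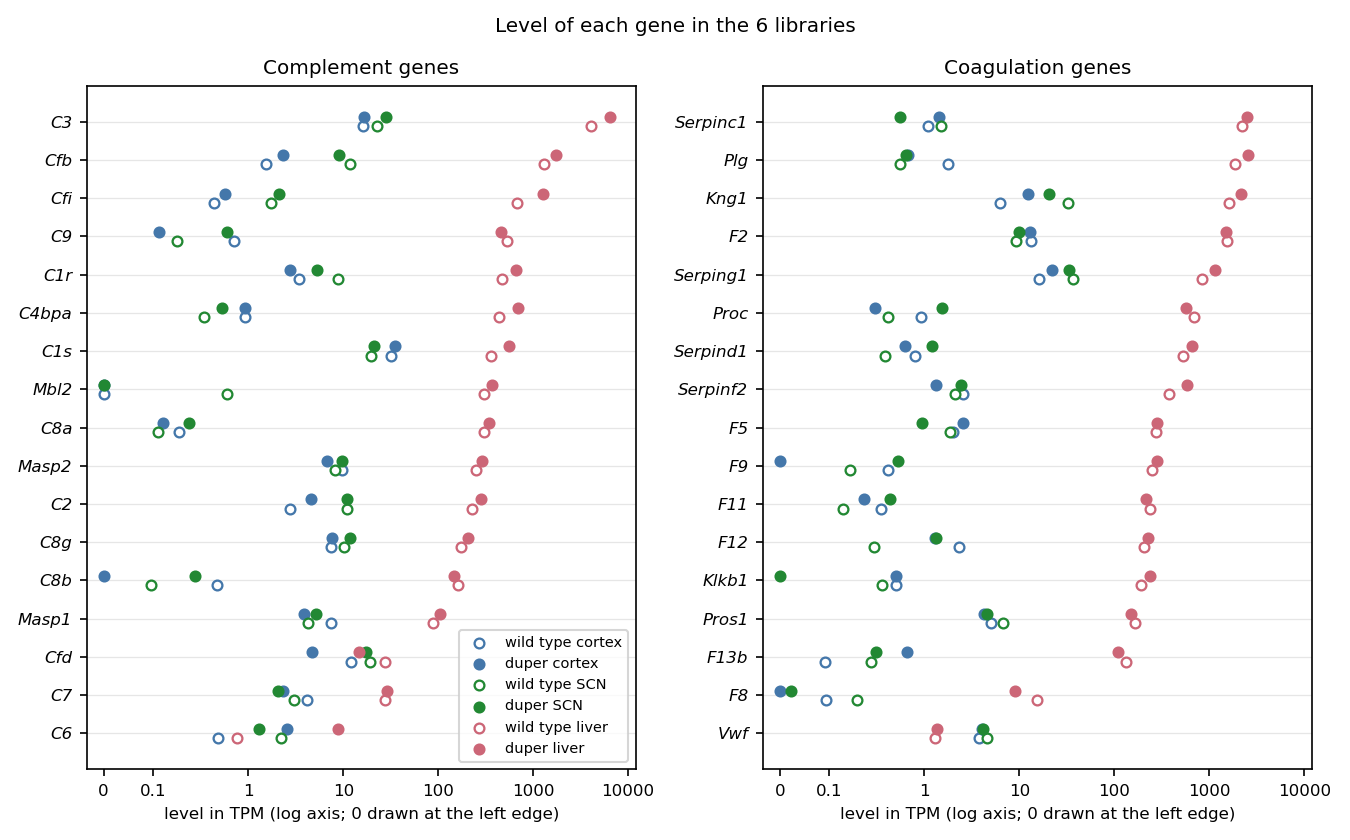
Level of each complement gene (left) and coagulation gene (right) in the 6 libraries, in TPM on a logarithmic axis with 0 drawn at the left edge. Open circles are wild type and filled circles *duper*, colored by tissue. The liver points lie far to the right of the brain points for nearly all genes, with *C6*, *Cfd* and *Vwf* as exceptions.

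The question of liver production was put as a comparison of liver with the mean of cortex and SCN, with genotype in the model, where a gene was called if its adjusted p was below 0.05 and its log2 fold change beyond 0.58 in either direction. All 17 complement genes and 16 of the 17 coagulation genes were called higher in liver, against 33.6% of the 19780 genes tested, and 0 members were called lower by edgeR, against 32.6%. None was lower at an unadjusted p under 0.05 either, or called lower by DESeq2 or the likelihood ratio test. The gene not called was *Vwf*. The median log2 fold change was 8.46 over the complement genes and 9.43 over the coagulation genes, beside 0.02 over all genes. Many members passed the count filter through their liver level alone, and among the 18 of the 34 with at least 10 counts in every library, 17 were called higher. By the quasi-likelihood test of edgeR, Benjamini-Hochberg adjusted, *C3* had a log2 fold change of 9.55, SE 0.43, adjusted p = 8.96e-07. Among members with counts in all 6 libraries *Plg* had the largest fold change and *Cfd* the smallest of those called. For *Plg* the same test gave a log2 fold change of 12.95, SE 0.40, adjusted p = 1.77e-07. For *Cfd* it gave a log2 fold change of 2.35, SE 0.27, adjusted p = 1.62e-04.

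*Vwf*, *Cfd* and *C6* had the smallest fold changes of the members between liver and brain. For *Cfd* the fold change depended on scaling, at 1.11 with library size and 0.72 with limma on log2 TPM plus 1, still called both times. *C6* was called by the quasi-likelihood test of edgeR, Benjamini-Hochberg adjusted (log2 fold change of 2.43, SE 0.76, adjusted p = 0.0232), yet its wild-type liver level of 0.762 TPM was under the 2.22 TPM of the wild-type SCN, and the call was lost over the SCN alone (1.88), without the *duper* cortex (2.68) or the *duper* liver library (0.55), with library size as the scaling (1.17) and with limma on log2 TPM (0.74 and 0.90 at either pseudocount). *Vwf* was not called by the same test (log2 fold change of -0.06, SE 0.18, adjusted p = 0.79). With library size in place of the trimmed mean of M values (TMM), the median of all genes moved to -1.22, with 3108 genes called higher and 11470 lower in place of 6644 and 6445, and *Vwf* was then called lower, at -1.30, as it was by limma. The 12 genes listed as markers of endothelium, the cells that make Vwf protein, gave 11 positive fold changes with a median of 0.90, 8 called higher and 1 lower. They summed to 139 and 125 TPM in liver, 182 and 197 TPM in the SCN and 226 and 195 TPM in cortex. *Cldn5* led in every brain library but had 1.16 and 0.491 TPM in liver, where *Cdh5* led, and the part of these genes in the *Vwf* result was not tested. The p-values measure only the spread between libraries, with the genotypes standing in for replicates of a tissue and the tissues for replicates of a genotype.

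Brain levels were read against hepatocyte genes, to see which of the members exceeded the trace of liver-type transcripts that any brain library held. This yardstick was chosen after the values were seen. Expressed as a percent of the level in the liver library of the same genotype, 11 of the 13 hepatocyte markers lay between 0.0133 and 0.329% in the brain libraries, with a median of 0.075%, and *Alb*, the most abundant in liver, at 0.0391 to 0.104%. The other 2 reached higher percentages and were not used in the yardstick. *Ttr*, made by choroid plexus, is the one shown, at 0.157 to 16.3%. Of complement, 9 genes lay above all 11 markers in each of the 4 brain libraries, and of coagulation, 6 did. A further 2 of each class, *C3*, *Cfb*, *F12* and *Serpinf2*, lay above the marker median in all 4. The remaining 6 complement genes (*C8a*, *C8b*, *C9*, *Cfi*, *Mbl2* and *C4bpa*) and 9 coagulation genes (*F8*, *F9*, *F11*, *F13b*, *Klkb1*, *Plg*, *Proc*, *Serpinc1* and *Serpind1*) did not, and none of these exceeded 2.09 TPM in a brain library. How far liver-type RNA added to the brain values was not tested.

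The 9 complement genes above the markers came from several steps of the cascade. The classical pathway was present as *C1s*, at 3.73 to 8.87% of its liver level, *C1r*, at 0.421 to 1.89%, and *C2*, at 1.21 to 4.86%. Both lectin proteases were present, *Masp1* at 3.73 to 8.52% and *Masp2* at 2.32 to 3.88%, although *Mbl2*, the lectin they bind, had 5 counts in wild-type SCN and 0 in the other brain libraries. Of the late components, *C7* stood at 7.15 to 14.8%, *C8g* at 3.71 to 6.01% and *C6* at 14.6 to 291%. *Cfd* stood at 31.9 to 118%, as its liver level was low. *C3* had 250 to 1766 counts per brain library and stood at 0.26 to 0.566% of a liver level that was the highest of all members. The brain libraries thus held transcripts for the C1 proteases, C2, C3 and the lectin proteases, while those for C8a and C9 did not exceed every one of the 11 hepatocyte markers in any brain library, and those for C8b did in wild-type cortex, on 3 counts.

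In coagulation the 6 genes were of unlike roles. *Serping1* stood at 1.89 to 4.34% of its liver level and *Pros1*, which also serves as a ligand of phagocytic receptors, at 2.9 to 4.02%. Prothrombin, *F2*, stood at 0.604 to 0.862%, with 67 to 270 counts in each brain library, *F5* at 0.33 to 0.892% and *Kng1* at 0.391 to 2.02%. *Vwf* stood at 286 to 349%. Plasminogen and antithrombin, at 0.025 to 0.0944% and 0.022 to 0.0668%, overlapped the range of the hepatocyte markers.

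**Figure D2:**
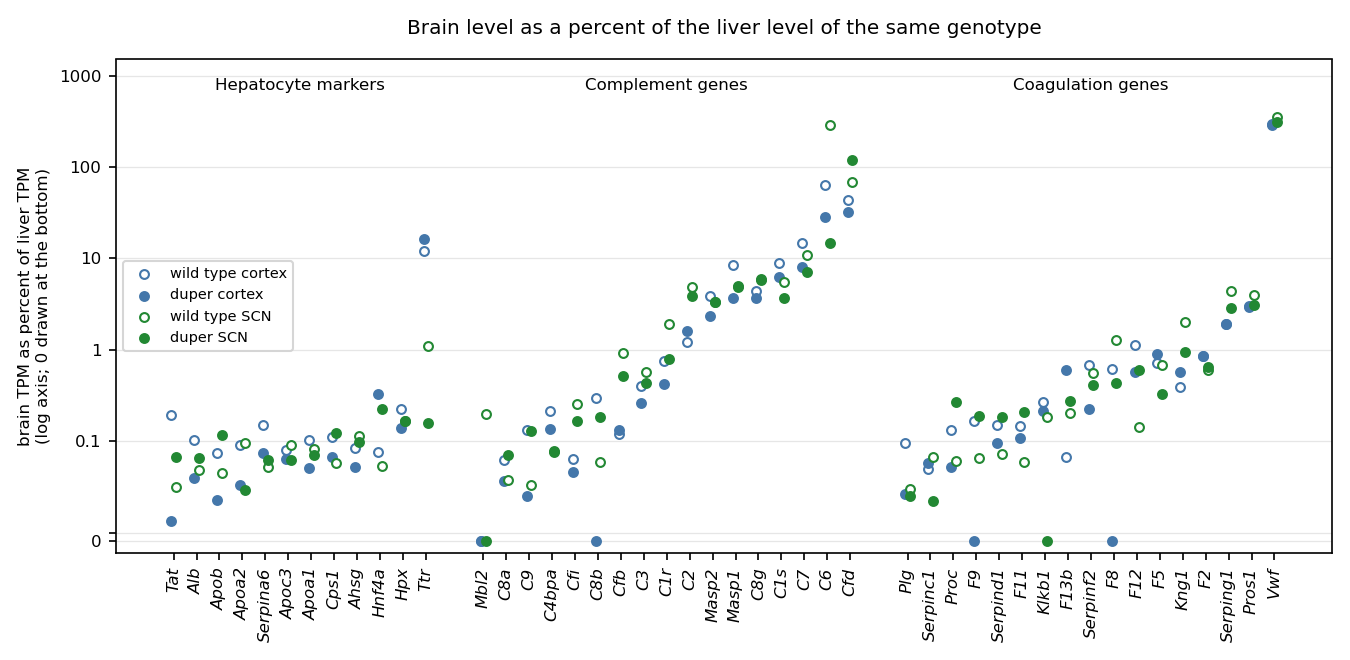
Level in each brain library as a percent of the liver library of the same genotype, on a logarithmic axis with 0 drawn at the bottom, for hepatocyte markers, complement genes and coagulation genes. Open circles are wild type and filled circles *duper*, colored by brain region. 1 of the 13 hepatocyte markers is not drawn. The markers drawn other than *Ttr* lie at or under 0.329%, and 9 complement and 6 coagulation genes lie above them in all 4 brain libraries.

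The transcripts behind these gene totals differed between liver and brain for several of the 14 members with more than 1 annotated transcript. Shares are of the gene's TPM as estimated from reads that transcripts of a gene largely share, with exact Clopper-Pearson 95% intervals, and these intervals, like every interval and floor here, cover counting error only. *Masp1* encodes several proteins from alternative ends. Its 1920-base transcript held 68.6% (interval 56.4 to 80.2) of the gene in wild-type cortex, 55.2% (38.4 to 69.5) in *duper* cortex and 53.6% (45.3 to 61.3) in wild-type SCN, but 13.9% (5.31 to 30.7) in *duper* SCN, where the gene had 62 counts. In liver the share of that transcript was 0.813% (0.623 to 1.09) in wild type and 0.233% (0.15 to 0.363) in *duper*. The 2967-base transcript held 45.1 and 53% in liver and 5.7 to 28.9% in brain. Much of brain *Masp1* was thus a short transcript that liver hardly used, except in *duper* SCN.

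*C8g* showed a like contrast. Its 1000-base transcript held 95 and 97.3% of the gene in liver and the 916-base transcript 5.05 and 2.68%. In brain the 916-base transcript had the largest share in each library, from 57.9% in wild-type cortex to 82.2% in *duper* cortex. In wild-type cortex this was 9 against 8 counts (29.6 to 78.5), and in *duper* SCN 66.5% (49 to 82.7). Neither interval excludes an equal split. The 1000-base transcript was at 0 in 3 brain libraries, where 17 to 32 counts of the gene allow a share of up to 10.1 to 18.4%, and at 40.6% (32.1 to 50.2) in wild-type SCN. For *F8*, the 7238-base transcript made up 100% in both livers, with 4585 and 3387 counts, and 0 of the 21 counts in wild-type SCN, where the 7022-base transcript held 80.6% (58.1 to 94.6). *F2* used its 1994-base transcript for 92.8 and 94.1% in liver and for 59.7 to 70.9% in brain.

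A pair of genes differed by genotype in both brain regions and not in liver. *F5* was assigned wholly to its 7426-base transcript in wild-type cortex and SCN and in both livers, and wholly to its 7372-base transcript in *duper* cortex, with 86 counts, and *duper* SCN, with 25. *C2* had 0% of its 2448-base transcript in both wild-type brain libraries, 33.7% (20.1 to 47.3) in *duper* cortex and 41.3% (31.3 to 51.8) in *duper* SCN, against 0.792 and 0.696% in the livers. The transcripts of each pair are of similar length. Other members differed in a single brain region. The 3650-base transcript of *C7* held 69.8% (54.2 to 82.9) in wild-type and 0% (0 to 9.3) in *duper* cortex. In the SCN the 2124-base transcript of *F2* held 0% (0 to 1.33) in wild type and 36.2% (24.5 to 48.2) in *duper*. The 3177-base transcript of *Serpinf2* held 29.1% (20.8 to 39.6) and 0% (0 to 12.9) there. The differences between libraries were not tested. *Kng1* was steadier, its 1597-base transcript holding 56.7 to 83.2% in brain and 68.7 and 73.2% in liver.

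Between the brain regions, *Cfb*, *C2* and *Cfi* were the members called. With genotype in the model, these 3 complement genes were called higher in the SCN than in cortex, against 3.77% of the 19780 genes tested, and 0 were called lower by edgeR, against 6.8%, with *C1s* lower at an unadjusted p under 0.05. Of the coagulation genes 0 were called in either direction by edgeR's quasi-likelihood test, with 3 of 17 at an unadjusted p under 0.05, beside 7 of 17 for complement and 5115 of the 19780 genes. DESeq2 called 2 coagulation genes higher, the likelihood ratio test 2 higher and 1 lower. The median log2 fold change was 0.62 for complement, 0.02 for coagulation and 0.03 for all genes. With *Mbl2*, at 0 counts in both cortex libraries, put at its bound against a floor of 3 counts per library, the complement median was 0.15.

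*Cfb* had 1.54 and 2.32 TPM in cortex and 11.9 and 9.12 TPM in the SCN, so both SCN libraries were well above both cortex libraries. By the quasi-likelihood test of edgeR, Benjamini-Hochberg adjusted, this was a log2 fold change of 2.50, SE 0.41, adjusted p = 0.0102. *C2* had 2.72 and 4.59 TPM in cortex and 10.9 and 11 TPM in the SCN, again without overlap, with a log2 fold change of 1.63, SE 0.25, adjusted p = 0.00768 in the same edgeR test. *Cfi* was called on few counts, 3 and 6 in cortex and 60 and 17 in the SCN (log2 fold change of 2.10, SE 0.51, adjusted p = 0.044 by edgeR). These calls depended on single libraries. Without either cortex library or without the wild-type SCN library 0 members were called. Without the *duper* SCN, the wild-type liver or the *duper* liver library, 7, 7 and 8 members were called higher and 1 lower each time. Calls over all genes moved too, from 745 higher to 76 without the wild-type cortex, 122 without the *duper* cortex and 195 without the wild-type SCN library. They numbered 562 without the *duper* SCN, 1627 without the wild-type liver and 1574 without the *duper* liver library.

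Other members leaned to the SCN without passing. *Kng1* had 6.32 and 12.3 TPM in cortex and 32.7 and 20.4 TPM in the SCN (log2 fold change of 1.46, SE 0.42, adjusted p = 0.0728 by edgeR). *Serping1* had 16.1 and 21.9 against 36.3 and 33.2 TPM (log2 fold change of 0.92, SE 0.25, adjusted p = 0.0652, edgeR). *C1r* had 3.46 and 2.76 against 8.77 and 5.23 TPM (log2 fold change of 1.29, SE 0.43, adjusted p = 0.109, edgeR). In none of the 3 did the regions overlap. *C1s*, the partner of *C1r*, lay the other way, at 31.5 and 35 TPM in cortex against 19.8 and 21 TPM (log2 fold change of -0.68, SE 0.24, adjusted p = 0.126, edgeR). The likelihood ratio test called 6 complement genes higher and 1 lower, and DESeq2 called 4 higher and 0 lower.

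Markers of fibroblasts and leptomeninges moved with the region. All 8 had positive fold changes for SCN over cortex, 3 were called higher, and the median was 1.53. They summed to 102 and 101 TPM in cortex, 392 and 172 TPM in the SCN and 164 and 165 TPM in liver, with *Slc6a13* the most abundant at 148 and 65.3 TPM in the SCN. Of 28 interferon-stimulated genes 24 were positive and 4 called higher, with a median of 0.52. Microglia and macrophage markers gave 9 of 11 positive and 0 called by edgeR, 1 of them at an unadjusted p under 0.05, with a median of 0.08. The part of these cells in the SCN levels of complement genes was not tested.

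Across the 3 tissues together, with tissue in the model, no member was called between *duper* and wild type. Of the 34 members 28 passed the count filter, 14 in each class, and 0 were called higher, against 0% of 18275 genes, and 0 lower, against 0.00547%, by edgeR's quasi-likelihood test, nor by DESeq2 or the likelihood ratio test. At an unadjusted p under 0.05 there were 3 complement genes and 1 coagulation gene, beside 606 of all genes. The fold change was positive for 11 of 14 genes in each class, with medians of 0.27 for complement, 0.11 for coagulation and 0.01 for all genes. The lean depended on the liver libraries. Without both of them 6 of 12 complement and 3 of 8 coagulation genes were positive, with medians of 0.00 and -0.10. Without the wild-type liver library it was 6 of 12 and 6 of 13, with medians of 0.04 and -0.05, and without the *duper* liver library 6 of 12 and 6 of 13, with medians of 0.04 and -0.04. The tissue term fits a lone liver library, so these fits are no check apart from leaving out both.

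The 4 members below that unadjusted p were the regulators *Cfi* and *C4bpa*, the protease gene *Cfd* and the cofactor gene *F8*. By the quasi-likelihood test of edgeR, Benjamini-Hochberg adjusted, *Cfi* had a log2 fold change of 0.82, SE 0.25, adjusted p = 0.998, with *duper* above wild type in each tissue. In cortex, on 3 and 6 counts, and in the SCN, on 60 and 17, the counting interval of its ratio included 0. *C4bpa* had a log2 fold change of 0.73, SE 0.22, adjusted p = 0.998 by edgeR, with liver levels of 438 and 687 TPM and cortex levels that were nearly equal. *Cfd* had a log2 fold change of -0.67, SE 0.28, adjusted p = 0.998 by edgeR, *duper* being lower in each tissue. In the SCN the counting interval of the *Cfd* ratio, -0.61 to 0.35, included 0. *F8* had a log2 fold change of -0.73, SE 0.29, adjusted p = 0.998 by edgeR, also lower in each tissue, though in brain on 21 counts or fewer. The largest fold change of all was that of *C6* (log2 fold change of 1.95, SE 0.90, adjusted p = 0.998, edgeR), which was called when the SCN libraries were left out, at 3.39, and stood at 0.47 without the liver libraries. *C3* had a log2 fold change of 0.40, SE 0.36, adjusted p = 0.998 in the same edgeR fit.

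Within a tissue 1 library stood against 1, so a difference there has no replicate check, and ratios are given as log2 of *duper* over wild type of TPM plus 1, for genes whose mean reached 1 TPM, with a counting interval of the ratio without that added 1. In liver 14 of 17 complement genes and 11 of 17 coagulation genes had positive ratios. The medians were 0.27 for complement and 0.13 for coagulation, beside -0.10 for all 14054 genes. Past 0.58 upward were 5 complement genes and 1 coagulation gene, against 4.75% of genes, and past -0.58 downward 1 of each class, against 10.5%. The summed complement level was higher in *duper* by 0.54 on the log2 scale, or 1.45-fold, and the summed coagulation level by 0.25, or 1.19-fold. With *C3* left out the complement sum differed by 0.43, and with *Serpinc1* left out the coagulation sum by 0.27, leave-outs chosen after the data were seen. With TMM-normalized counts (CPM) the median of all genes moved by 0.16, and 15 complement and 14 coagulation genes were positive, with summed ratios of 0.78 and 0.44.

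The higher complement ratios in *duper* liver belonged to several steps. *Cfi*, at 682 (wild type) against 1259 TPM (*duper*), had a log2 ratio of 0.88 (interval 0.87 to 0.90). *C3*, at 4034 (wild type) against 6426 TPM (*duper*), had 0.67 (0.67 to 0.68). *C1s*, at 356 (wild type) against 562 TPM (*duper*), had 0.66 (0.64 to 0.68), and its partner *C1r*, which did not pass 0.58, had 0.50 (0.49 to 0.52). *C4bpa*, at 438 (wild type) against 687 TPM (*duper*), had 0.65 (0.63 to 0.67). *Cfb* and *C2*, the proteases of the C3 convertases, had 0.45 (0.44 to 0.46) and 0.33 (0.31 to 0.36). C3, its convertase proteases, the C1 proteases and the regulators that inactivate C3b and C4b were all higher in the *duper* liver library.

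*C6* stood apart. Its liver level was 0.762 (wild type) against 8.9 TPM (*duper*), on 107 and 1555 counts. The ratio was 2.49 in log2, and 3.55 without the added 1 (interval 3.26 to 3.84). The remaining members of the membrane attack complex did not share this difference. *C7* had a log2 ratio of 0.06, *C8a* 0.17, *C8b* -0.11, *C8g* 0.26 and *C9* -0.20, so *C8b* and *C9* were lower in *duper* liver in TPM. The *C8b* difference was smaller than the shift of the all-gene median under TMM scaling, 0.15 to 0.16. Complement genes with negative liver ratios numbered 3 in TPM and 2 with CPM or with TPM rescaled by TMM factors. *Cfd* was the complement gene past the threshold downward, at 27.7 (wild type) against 14.8 TPM (*duper*), with a log2 ratio of -0.86 (interval -1.06 to -0.75). The merged liver values do not show whether *C6* was high in each of the 4 *duper* hamsters or in fewer, and with 1 transcript in the annotation its make-up could not be followed further.

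Coagulation ratios in liver were smaller and of mixed sign. *Serpinf2*, the plasmin inhibitor, was the coagulation gene past the threshold upward, at 374 (wild type) against 589 TPM (*duper*), with a log2 ratio of 0.65 (interval 0.64 to 0.67). Its target plasminogen, *Plg*, had 0.45 (0.44 to 0.46), *Serping1* 0.47 (0.45 to 0.48) and *Kng1* 0.43 (0.42 to 0.44). Prothrombin, *F2*, was near equal at -0.02 (-0.03 to -0.01), and antithrombin, *Serpinc1*, stood at 0.17 (0.17 to 0.19). On the lower side were *Proc*, at -0.25 (-0.27 to -0.23), *F13b*, at -0.28 (-0.31 to -0.26), and *F8*, at -0.69 (-0.82 to -0.69), from 15.2 (wild type) against 9.04 TPM (*duper*). *F8* no longer passed the threshold when TPM were rescaled by TMM factors or replaced by CPM, and 4 and 3 coagulation genes then passed it upward.

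**Figure D3:**
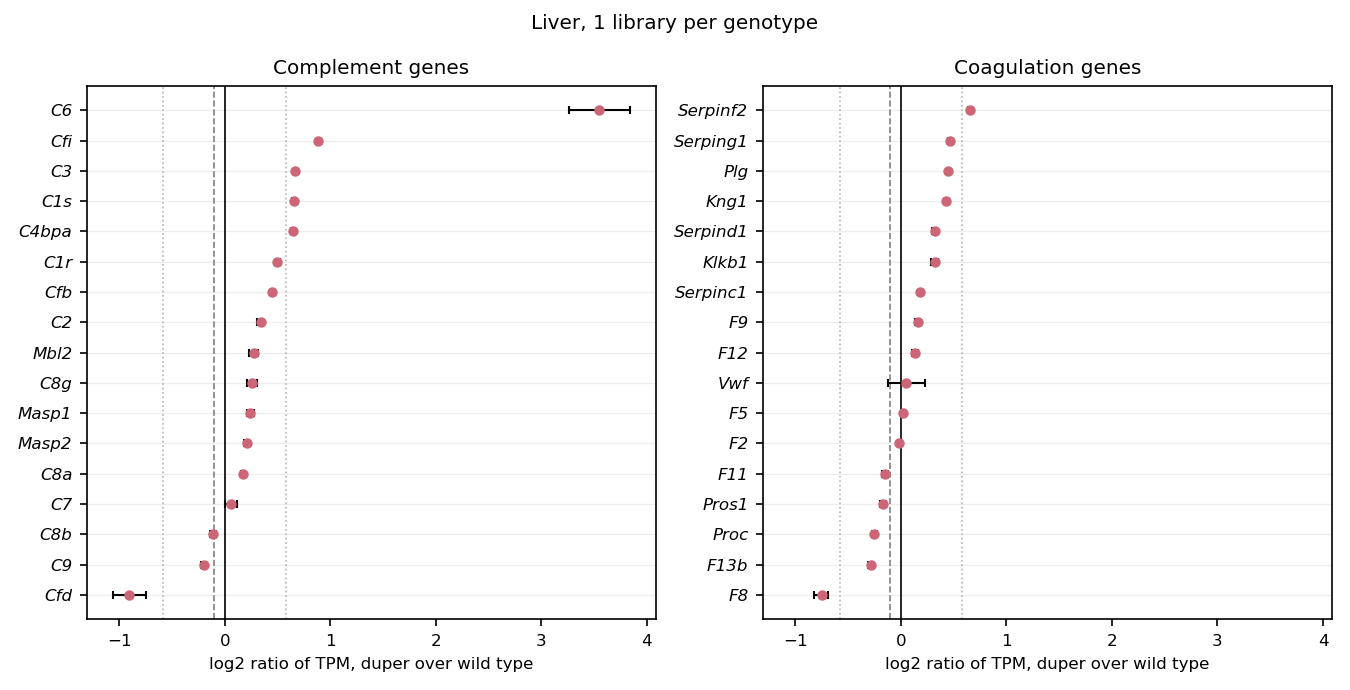
Log2 ratio of *duper* over wild-type TPM in liver for each gene, without an added constant and with its 95% counting interval, from 1 library per genotype. The dashed line is the median of all genes for TPM plus 1, and the dotted lines mark 0.58 in either direction. *C6* lies farthest to the right at 3.55, and *Cfd* and *F8* lie farthest to the left.

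Other gene groups of the liver libraries differed alongside. All 11 acute-phase genes with a value had positive ratios, 8 of them past 0.58, with a median of 1.18, and they summed to 28488 and 53547 TPM in liver, 148 and 183 TPM in the SCN and 79 and 66.6 TPM in cortex, with *Hp* the most abundant in liver and *Itih3* in brain. Macrophage and microglia markers were positive in 8 of 8, with 4 past 0.58 and a median of 0.60, and summed to 337 and 530 TPM in liver, 175 and 228 TPM in the SCN and 155 and 197 TPM in cortex. Their most abundant gene in liver was *Marco*, and *Marco* and *Clec4f*, markers of liver macrophages, were at 0 in wild-type cortex. Interferon-stimulated genes were positive in 23 of 27, with a median of 0.35, and summed to 808 and 963 TPM in liver, 239 and 336 TPM in the SCN and 200 and 239 TPM in cortex, led in liver by *Bst2* in wild type and *Psmb8* in *duper*. Hepatocyte markers were positive in 9 of 13 with a median of 0.06, and summed to 152327 and 162036 TPM in liver, led by *Alb*, 249 and 127 TPM in the SCN and 1983 and 2572 TPM in cortex. In cortex *Ttr* made up 1837 and 2505 TPM of the sum and *Alb* 112 and 43.9 TPM. The sinusoidal endothelium, the main source of factor VIII, gave 1 of 6 markers positive, a median of -0.22 and sums of 306 and 257 TPM in liver, 49.1 and 50.8 TPM in the SCN and 43.6 and 48.2 TPM in cortex, with *Fcgr2b* the most abundant in liver and *Lyve1* in brain. Whether these groups have a part in the complement and coagulation ratios was not tested.

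In the SCN fewer members could be compared, 12 of complement and 8 of coagulation, and the coagulation genes kept by the 1 TPM minimum were mostly lower in *duper*, 6 of 8. Without that minimum the coagulation median was 0.04, with 9 ratios positive and 8 negative. *F12*, *Proc* and *Serpind1*, under the minimum and on 13 counts or fewer, were higher in *duper*, with intervals above 0. Past 0.58 upward were 0 members, against 6.67% of 18305 genes, and past -0.58 downward 1 complement gene and 2 coagulation genes, against 7.7%. The medians were 0.05 for complement, -0.29 for coagulation and 0.02 for all genes, and the summed levels differed by 0.02 and -0.25. Without the most abundant gene of each class the sums differed by -0.05 and -0.33, and with CPM by 0.06 and -0.29. *Kng1* had 32.7 (wild type) against 20.4 TPM (*duper*), a log2 ratio of -0.66 (interval -0.97 to -0.41). *C1r* had 8.77 (wild type) against 5.23 TPM (*duper*), a ratio of -0.65 (-1.24 to -0.28). *Serpinc1* had 34 and 3 counts and a ratio of -0.68 (-3.77 to 0.24, which includes 0). The genes past the threshold were thus of the contact system, the classical pathway and, on few counts, antithrombin. The cofactor genes *F5*, at -0.57 (-1.66 to -0.40), and *Pros1*, at -0.46 (-0.99 to -0.12), did not pass the threshold. *C3* was slightly higher in *duper*, at 0.28 (0.15 to 0.43).

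The fibroblast and leptomeningeal markers differed alongside, as 0 of 8 had a positive ratio in the SCN, 7 were past -0.58, and their median was -1.25, whereas in cortex 4 of 8 were positive with a median of 0.02. Choroid plexus and ependyma markers summed to 198 and 48.6 TPM in the SCN, 1888 and 2552 TPM in cortex and 15217 and 15374 TPM in liver, led by *Ttr*. Neuron markers were positive in 6 of 6 in the SCN with a median of 0.18, and summed to 2399 and 2735 TPM there, 5321 and 5464 TPM in cortex and 0.998 and 1.3 TPM in liver, led by *Snap25* in brain. Of 6 SCN markers that could be compared there, 1 had a positive ratio and 2 were past -0.58, with a median of -0.52. These were *Nms*, at 33.5 (wild type) against 13.4 TPM (*duper*), and *Vipr2*, at 12.5 (wild type) against 6.32 TPM (*duper*). The SCN markers summed to 100 and 66.7 TPM in the SCN, 32.5 and 30.5 TPM in cortex and 139 and 146 TPM in liver. The most abundant were *Nms* in wild-type SCN, *Rora* in cortex and *Rgs16* in *duper* SCN and liver. Interferon-stimulated genes had 23 of 28 ratios positive in the SCN, 13 past 0.58 and a median of 0.43. Microglia and macrophage markers had 8 of 9 positive, 3 past 0.58 and a median of 0.42. The part of these groups and of tissue composition in the *C3*, *Kng1*, *C1r*, *F5* and *Pros1* ratios was not tested.

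In cortex 11 complement and 10 coagulation genes could be compared, with medians of 0.03 and 0.04 beside 0.02 for all 18096 genes. Past 0.58 upward were 2 complement genes and 1 coagulation gene, against 8.24%, and downward 3 and 2, against 7.75%. The counts are small. *Kng1* was higher in *duper*, at 6.32 (wild type) against 12.3 TPM (*duper*) with 37 and 99 counts and a log2 ratio of 0.86 (interval 0.40 to 1.54). *C6* had 0.482 (wild type) against 2.55 TPM (*duper*) with 5 and 40 counts and a ratio of 1.26 (1.07 to 4.11). *C2* had 0.59 (0.00 to 1.56, which reaches 0). Higher in *duper* cortex were thus a contact gene, a late complement gene and a convertase gene. Lower in *duper* were *Cfd*, at -1.20 (-2.36 to -0.42), *Masp1*, at -0.80 (-1.55 to -0.35), and *C7*, at -0.62 (-1.49 to -0.16). Of coagulation, *Plg*, at -0.73 (-2.86 to -0.05), and *Serpinf2*, at -0.60 (-1.88 to 0.00, which reaches 0), were lower, on 24 counts or fewer per library. Liver-type genes were lower alongside in *duper* cortex. Hepatocyte markers had 2 of 9 ratios positive, 3 past -0.58 and a median of -0.48. Acute-phase genes had 1 of 9 positive, 6 past -0.58 and a median of -0.63. Their part in the *Plg* and *Serpinf2* ratios was not tested. The summed levels differed by -0.13 for complement and 0.19 for coagulation. Without the most abundant gene of each class they differed by -0.28 and 0.07, and with CPM by -0.05 and 0.09. *Kng1*, *C6* and *C1r* thus differed in opposite directions in the SCN and in another tissue.

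The wider pathways were followed with 29 further complement genes and 38 further coagulation genes that had a value. In liver over brain 18 of 28 complement genes tested were called higher and 8 lower, and 24 and 4 of 36 coagulation genes. Of all 19780 genes tested, 33.6% were called higher and 32.6% lower. The liver-specific end was marked by *Apoh*, a phospholipid-binding plasma glycoprotein, at 6021 and 5628 TPM in liver, 1.8 and 2.79 TPM in the SCN and 6.02 and 2.97 TPM in cortex (log2 fold change of 12.51, SE 0.35, adjusted p = 1.34e-07 by edgeR), and by *Serpina5*, the protein C inhibitor, which had 1 count in the 4 brain libraries together and 76.1 and 104 TPM in liver. At the brain end stood the complement-control genes *Susd4* and *Csmd3*, whose products restrain complement. *Susd4* had 0.00946 and 0.0152 TPM in liver, 84.6 and 93.2 TPM in the SCN and 81.6 and 84.8 TPM in cortex. *Csmd3* had 0.00375 and 0.00754 TPM in liver, 8.35 and 9.95 TPM in the SCN and 6.35 and 7.21 TPM in cortex. In liver they had 5 counts or fewer. Their proteins are membrane-bound, unlike the secreted C4b-binding protein and factor I, whose genes were high in liver.

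In SCN over cortex 1 further complement gene was called higher and 0 lower by edgeR, with 10 of 28 at an unadjusted p under 0.05, beside 5115 of all 19780 genes. Of the 36 coagulation genes tested 3 were called higher (*Procr*, *Serpine2* and *Thbd*) and 2 lower (*Adamts13* and *Vkorc1l1*). Among all genes tested 3.77% were called higher and 6.8% lower. The complement gene was *C4a*, which supplies the C4 that C1s and MASP2 cleave and was named after its values were seen. It had 11.9 and 17.8 TPM in cortex, 34.7 and 38.8 TPM in the SCN and 794 and 1161 TPM in liver. *Procr*, the endothelial protein C receptor, had 0.784 and 1.21 TPM in cortex, 7.79 and 4.19 TPM in the SCN and 8.01 and 10.3 TPM in liver, higher in both SCN libraries (log2 fold change of 2.61, SE 0.58, adjusted p = 0.0316 by edgeR). *Adamts13*, the protease that trims von Willebrand factor, had 0.942 and 1.8 TPM in cortex, 0.113 and 0 TPM in the SCN and 4.05 and 4.3 TPM in liver, lower in both SCN libraries (log2 fold change of -4.03, SE 0.64, adjusted p = 0.0092 by edgeR). The receptor genes *F2rl3*, for a thrombin receptor, and *Bdkrb2*, for a bradykinin receptor, had the next largest fold changes and were not called. *F2rl3* had 0.224 and 0.125 TPM in cortex, 0.897 and 1.41 TPM in the SCN and 0.202 and 0.11 TPM in liver. *Bdkrb2* had 0.257 and 0.298 TPM in cortex, 0.0257 and 0 TPM in the SCN and 0.038 and 0.0153 TPM in liver.

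By genotype 0 of 28 further complement genes and 0 of 30 further coagulation genes were called by edgeR, against 0% of 18275 genes higher and 0.00547% lower. At an unadjusted p under 0.05 there were 3 and 0, beside 606 of all genes, and the medians were 0.12 and 0.04. The largest positive fold changes were those of *Fgb* and *Vsig4*. *Fgb*, a fibrinogen chain and an acute-phase gene, had 2493 and 5805 TPM in liver, 2.25 and 2.27 TPM in the SCN and 4.26 and 1.93 TPM in cortex (log2 fold change of 0.69, SE 0.48, adjusted p = 0.998 by edgeR), and without the liver libraries its fold change was -0.56. *Vsig4*, the complement receptor of liver macrophages, had 11.3 and 15 TPM in liver, 0.617 and 1.4 TPM in the SCN and 0.474 and 0.469 TPM in cortex (log2 fold change of 0.67, SE 0.31, adjusted p = 0.998 by edgeR). At the other end, *Gp9*, a platelet receptor subunit, had 1.61 and 0.716 TPM in liver, 3.58 and 0.847 TPM in the SCN and 2.84 and 3.91 TPM in cortex (log2 fold change of -0.81, SE 0.59, adjusted p = 0.998 by edgeR). *Tfpi*, the inhibitor of the tissue factor pathway, had 6.38 and 3.16 TPM in liver, 14.4 and 7.06 TPM in the SCN and 7.27 and 8.58 TPM in cortex (log2 fold change of -0.62, SE 0.30, adjusted p = 0.998 by edgeR).

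In liver the further complement genes leaned the way of the listed ones, with 15 of 22 ratios positive, 5 past 0.58 upward, 0 downward and a median of 0.24. The C1q chains that carry C1r and C1s, named after their values were seen, belonged to these, with *C1qa* at 155 (wild type) against 279 TPM (*duper*), *C1qb* at 124 (wild type) against 209 TPM (*duper*) and *C1qc* at 161 (wild type) against 249 TPM (*duper*). *C4a* had 794 (wild type) against 1161 TPM (*duper*) in liver. The further coagulation genes gave 17 of 28 positive, 3 past the threshold in each direction, against 4.75% of genes upward and 10.5% downward, and a median of 0.15. The fibrinogen chains *Fga*, *Fgb* and *Fgg*, of which *Fga* and *Fgg* were named after their values were seen, are acute-phase genes as well and had 1571 (wild type) against 3468 TPM (*duper*), 2493 (wild type) against 5805 TPM (*duper*) and 2145 (wild type) against 4857 TPM (*duper*). Transcripts for fibrinogen, the substrate of thrombin, were thus higher in the *duper* liver library while those for prothrombin were not.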

How the data were processed

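The deposited gene-level values were made by the authors with Kallisto (version not given in the sources used here) and summed per gene with tximport: estimated counts, not scaled, and TPM, which add up to the same total in every library. Deposited transcript-level values gave estimated counts, TPM and lengths in bases for 67818 transcripts. Estimated counts were rounded and fitted in edgeR 4.0.16 (R 4.3.3) with TMM scaling, filterByExpr, tissue and genotype as terms and the quasi-likelihood test. P-values were adjusted over all genes tested, and a call needed an adjusted p below 0.05 and a log2 fold change beyond 0.58 in either direction. Ratios within a tissue used TPM plus 1 for genes whose mean reached 1 TPM, and transcript shares needed 10 counts of the gene. Alternatives were DESeq2 1.42.0, the tool the authors used, limma 3.58.1 on log2 TPM, a likelihood ratio test, other scalings, filters and terms, and leaving out libraries. The summed level without its most abundant gene was added after the data were seen. The members and lists were chosen with earlier results of these data known. Values in every library were given for members that were called, among the 5 highest of a class in liver, at a mean of at least 2 TPM in brain, or among the 4 largest ratios of a tissue with 20 counts in both libraries. Of other pathway genes, the 2 largest fold changes in each direction were named.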

Additional observations from a re-analysis of the deposited data

Results flagged for a closer look

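Many members had *duper* over wild-type ratios of opposite sign in different tissues. The 5 given here are those with a ratio past 0.58 or -0.58 in 1 tissue and counting intervals that, at 2 decimals, leave 0 on opposite sides. Each tissue has 1 library per genotype, and the difference between tissues was not tested. *C6* had a log2 ratio of -0.48 in the SCN, 1.26 in cortex and 2.49 in liver. *Kng1* had -0.66 in the SCN, 0.86 in cortex and 0.43 in liver. *C1r*, a protease of the C1 complex, had -0.65 in the SCN and 0.50 in liver. *Masp1* had -0.80 in cortex and 0.24 in liver. *Plg* had -0.73 in cortex, from 14 and 8 counts, and 0.45 in liver. In cortex the median ratio was -0.48 for hepatocyte markers and -0.63 for acute-phase genes, and their part in the *Plg* ratio was not tested.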

How the results depend on the processing

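With 1 library per genotype and tissue, leaving out a library leaves arms whose lone library is assumed to vary like the others, and the low depth of cortex and *duper* SCN limits what can be seen of members with few counts there. Causes of the differences below were not tested. Across tissues, complement genes called higher in *duper* numbered 1 without the SCN libraries and 0 to 1 without single libraries. *Fgb* turned to -0.56 without the liver libraries and ranged from -0.56 to 0.96 without single libraries. In liver over brain, 1 coagulation gene was called lower with library size and with limma at either pseudocount. *Vwf* stood at 0.03 over cortex alone and from -0.21 to 0.09 without single libraries. In SCN over cortex, complement genes called higher numbered 6 by the likelihood ratio test and 0 to 6 without single libraries. Coagulation genes called higher numbered 2 with DESeq2, library size, no filter or the likelihood ratio test, 1 with limma at either pseudocount or with 10 counts in every library, and 0 to 2 without single libraries. Called lower were 1 of each class by the likelihood ratio test and 0 to 1 of each without single libraries. In cortex, 1 complement gene was past 0.58 upward with CPM or rescaled TPM, 1 coagulation gene downward with rescaled TPM, and 2 upward with no minimum level. In the SCN, 2 complement genes were past it downward with a pseudocount of 0.1 or no minimum, 1 coagulation gene downward with rescaled TPM, and 3 upward with no minimum, where the coagulation median was 0.04 in place of -0.29. In liver, 3 coagulation genes were past it upward and 0 downward with CPM, and 4 and 0 with rescaled TPM. The summed liver ratios were 0.78 and 0.44 with CPM, and 0.43 and 0.27 without the most abundant gene of complement and of coagulation. Among values of single genes followed under alternatives, 462 were counted as unchanged. For tested fold changes that means the same direction and call. For ratios within a tissue it means a value inside the counting interval, on either side of 0.58. Another 31 tested fold changes were called where the reported one was not, and 20 lost their call. A further 48 values were ratios that moved past their counting interval. In that tally 6 changed direction, 3 each of *Fgb* and *Vwf*. Signs of liver ratios moved as well. Negative ratios of coagulation genes numbered 6 in TPM, 4 with rescaled TPM and 3 with CPM, and those of complement genes 3, 2 and 2.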
